A study of Mus musculus with 12 samples.

Results

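LPS is a component of the outer membrane of Gram-negative bacteria. B cells sense it through TLR4 with its partner MD-2, and through the related pair CD180 and MD-1, and the signal runs through MyD88 and TRIF to NF-kB and MAP kinases. Stimulated mouse B cells leave quiescence, enlarge, divide and can become antibody-secreting plasmablasts. Here the LPS response of control splenic B cells was read from 6 of the 12 arrays of a study of the B-lineage transcription factor Ebf1: the 3 arrays of LPS-stimulated and the 3 arrays of resting Ebf1+/fl cells, chosen by their sample titles.

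Both groups came from spleens of C57BL/6 mice that carried 1 floxed and 1 intact Ebf1 allele and RERTCre, a Cre recombinase that tamoxifen activates. The study calls them heterozygote controls. All of them received 3 mg tamoxifen citrate on each of 4 days and were killed on day 10, so the resting cells share the floxed allele, the Cre and the drug with the stimulated ones, and wild-type cells were not part of the comparison. B cells were sorted as B220+AA4.1- or B220+AA4.1-CD21lo, without a record of which sample took which gate, and were then left untreated or given LPS. The labels give no dose or duration of LPS and do not say whether resting cells spent the same time in culture, so LPS and culture cannot be told apart. The other 6 arrays hold the same stimulation in Ebf1fl/fl cells, in which both alleles are floxed. Beyond calling them triplicates, the labels do not say that replicates came from separate animals, and what the p values measure is then the variation among these arrays, technical variation included.

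Values are log2 signal relative to the 75th percentile of the array, differences are LPS minus resting on that scale, and a gene is called at an adjusted p under 0.05 in limma (Benjamini-Hochberg over 17129 genes). Between 54.43% and 58.86% of the spots on the 6 arrays were well above background. The B cell genes Ms4a1 and Cd79b were above background on all of them. Ebf1 itself, at the brightest of its probes, read 0.78, 1.42 and 1.22 in resting cells and 1.21, 1.06 and 1.10 after LPS, overlapping ranges with a difference of −0.01 (adjusted p 0.947). Markers of other blood cells were detected in both groups, and myeloid and erythroid ones were highest in resting replicates 1 and 3. A fit without these 2 arrays leaves 1 resting +/fl array, whose spread is assumed to be that of the other groups, and called 4321 genes higher (25.2%) and 3691 lower (21.5%).

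Between resting and stimulated cells 9873 of 17129 genes changed (57.6%), 5256 upward (30.7%) and 4617 downward (27%). Of those called, 42.6% moved by less than 2-fold. At larger folds the 2 directions were uneven. In all 2764 genes rose and 2904 fell at least 2-fold, while 154 rose and 491 fell at least 8-fold. LPS and resting values did not overlap for 65.7% of all genes. Of the genes called, 99.69% had the same sign within each of the 2 slides that held both groups, against 58.3% of genes not called. These within-slide differences come from arrays that also gave the calls, so they are no independent check. The first principal component of the 6 arrays held 77.2% of their variance and parted the resting arrays (−90.4 to −84.9) from the stimulated ones (83 to 93.3).

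**Figure D1:**
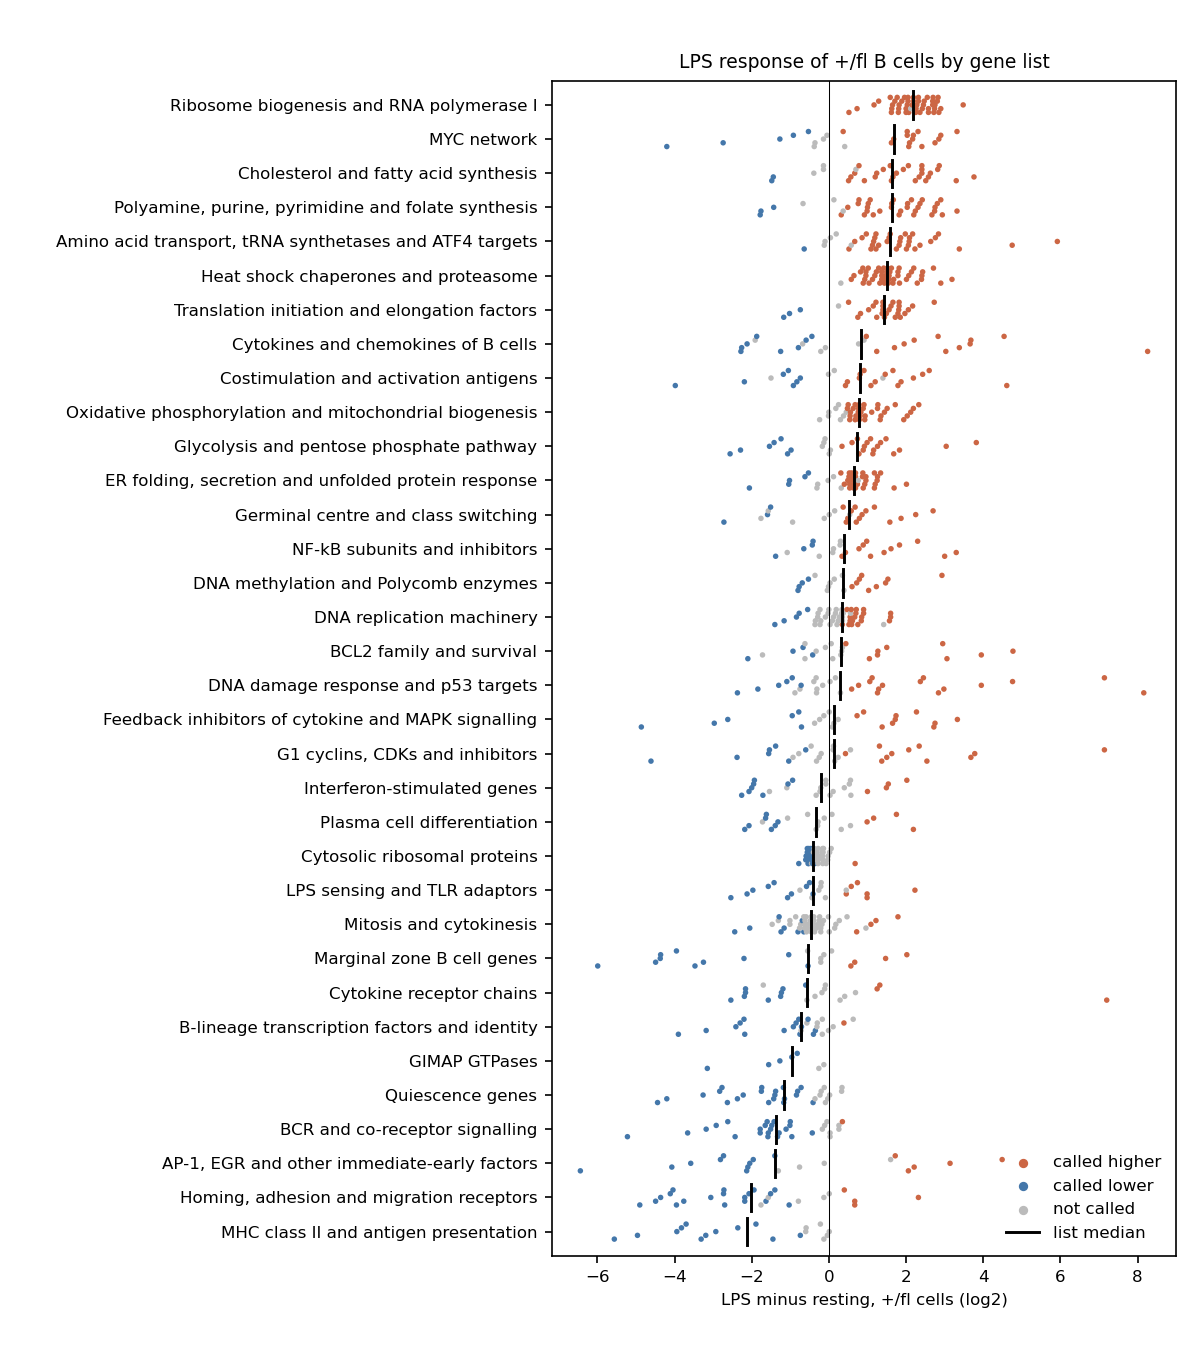
Difference between LPS-stimulated and resting +/fl B cells (log2, horizontal axis) for every tested member of 34 gene lists, with called genes in colour, others in grey and the list median as a black bar. Lists of ribosome biogenesis and biosynthesis lie to the right, with medians from 1.42 to 2.19, and MHC class II, homing and BCR signalling genes to the left, with medians from −2.12 to −1.38.

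Genes of both LPS receptors fell in stimulated cells. Tlr4, the LPS receptor, read −1.36, −2.10 and −2.04 in resting cells and −4.54, −4.50 and −4.08 after LPS, without overlap, and was 5.8-fold lower (−2.54, standard error 0.34, adjusted p 0.000111). Cd180, the TLR4-like receptor of B cells, read 3.10, 3.60 and 2.65 at rest and 1.67, 1.06 and 1.93 after LPS and was 2.96-fold lower. Its partner Ly86, which encodes MD-1, differed by −0.44 (adjusted p 0.0503), and Ly96, which encodes MD-2, by −0.20 (adjusted p 0.322). Myd88, the adaptor shared by most Toll-like receptors, was 1.49-fold higher. In the list of 23 sensing genes 6 rose (26.1% against 30.7% of all genes) and 10 fell (43.5% against 27%), with a median of −0.41. Ticam2, a bridging adaptor of the TRIF branch, was above background only after LPS and at least 1.71-fold higher, but its fitted difference was −0.03 with the normexp background correction.

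Genes of NF-kB, the transcription factor family that Toll-like receptors activate, rose for 12 of 22 members (54.5% against 30.7% of all genes) and fell for 4. Nfkb1, the p105 and p50 subunit, rose 3.04-fold. Relb, a subunit of the alternative pathway, read 3.69, 4.18 and 3.90 at rest and 4.64, 4.69 and 4.77 after LPS, a 1.71-fold rise. Rel, the c-Rel subunit that B cells need to divide, rose by 1.08 and was above background on 1 of 3 resting arrays. Inhibitors rose too, though not all of them. Nfkbia, which encodes IkB-alpha, went from 5.80, 6.27 and 5.86 to 7.47, 7.45 and 7.31, a 2.7-fold rise, and Tnfaip3, the ubiquitin-editing enzyme A20, from 1.43, 2.71 and 2.29 to 4.43, 4.52 and 4.38, a 4.91-fold rise. The highest of the list was Nfkbiz, the nuclear inhibitor-like protein IkB-zeta, at 3.30. The 4 that fell were Map3k14 (−1.38), the NIK kinase of the alternative pathway, Cyld (−0.65), a deubiquitinase, and the IkB kinase subunits Ikbkb (−0.43) and Ikbkg (−0.41). Ikbkg is uncertain, since another of its probes was called higher (0.84).

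Promoters of this group are shown because several hold the letters that NF-kB binds. RefSeq promoter windows, which run from 250 bases before to 50 after a gene's start on GRCm38.p6, were searched on both strands for 3 variants of the kB motif, which begin with GGG and end with CC. Of 26 windows of the list 6 held one (23.1%), against 0.417% of 13664 windows of all genes tested, 0.272% of the windows of genes at least 2-fold higher and 0.651% of those at least 2-fold lower. The stretches below are from Nfkbia and from the promoter of Nfkb2, which encodes p100 and p52 and rose by 0.89, with the match in capitals.
Nfkbia, chr12:55492648-55492716, strand -: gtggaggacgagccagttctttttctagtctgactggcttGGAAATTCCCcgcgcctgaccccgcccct
Nfkb2, chr19:46304658-46304736, strand +: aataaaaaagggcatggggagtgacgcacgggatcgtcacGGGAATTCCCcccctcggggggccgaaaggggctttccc
The matches begin 29 and 39 bases before the start. Matches before the start also stood in Cyld (−0.65, called lower) and Tnip1 (0.29, not called), so they were not limited to genes that rose. A match describes the letters only and is no measured binding.

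Cytokine genes moved in both directions. Il6, which encodes the plasma cell and fever cytokine interleukin-6, was above background on no resting array (−7.32, −6.84 and −7.41) and on all 3 stimulated arrays (1.06, 1.22 and 0.92). It was at least 77.5-fold higher (standard error of the fitted difference 0.27, adjusted p 4.31e-08). Il10, the anti-inflammatory cytokine of regulatory B cells, read −5.53, −4.08 and −4.12 at rest and −0.88, −0.92 and −0.94 after LPS, a 12.7-fold rise with 1 resting array below background. Tnf went from 0.37, −0.08 and −0.12 to 1.04, 1.63 and 1.22, a 2.36-fold rise. Ccl22, a chemokine for CCR4-bearing T cells, was above background only after LPS and at least 2.2-fold higher. Lta, which encodes lymphotoxin-alpha, was 1.73-fold lower. Of 26 cytokine genes 12 rose (46.2% against 30.7% of all genes) and 8 fell (30.8% against 27%). The median was 0.84, or 0.56 with genes below background in 1 group set at their bound.

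Of 21 receptor chains for cytokines 3 rose (14.3% against 30.7% of all genes) and 9 fell (42.9% against 27%). Il2ra, the alpha chain of the interleukin-2 receptor, read −5.20, −5.98 and −4.78 at rest, with 1 of the 3 below background, and 1.84, 1.82 and 1.98 after LPS, a 147-fold rise (7.20, standard error 0.28, adjusted p 6.05e-08). Il15ra rose by 1.32 and Il7r by 1.25, the latter with overlapping values (−1.70, −2.20 and −0.25 against −0.47, −0.06 and 0.14). Il4ra, the receptor chain for interleukin-4 and interleukin-13, was 4.47-fold lower.

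Surface molecules that talk to T cells rose for 15 of 26 members (57.7% against 30.7% of all genes) and fell for 7 (26.9% against 27%). Cd80 was highest, from −4.44, −5.07 and −4.21 (1 array below background) to 0.10, 0.13 and −0.12, a 24.3-fold rise. Its relative Cd86 rose 1.73-fold, from 0.87, 0.48 and 0.69 to 1.44, 1.47 and 1.51. Tnfsf4, which encodes OX40 ligand, was among the 10 largest rises at 56.6-fold, with 1 of 3 resting arrays above background. Cd44, the hyaluronan receptor of activated lymphocytes, rose 6.07-fold and the death receptor Fas 3.65-fold. Cd69, a common early activation marker, read 2.11, 3.92 and 3.00 at rest and 2.85, 3.13 and 3.02 after LPS, and its difference of −0.01 did not pass (adjusted p 0.983). The lowest of the list was Cd38, an ectoenzyme of resting B cells, at −3.98.

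The MYC network list holds other genes beside the factors, such as Srm, its highest member (3.32). Of its 25 tested genes 15 rose (60% against 30.7% of all genes) and 5 fell (20% against 27%). Myc, the growth-promoting factor, read 3.14, 3.31 and 3.45 at rest and 6.15, 6.25 and 6.04 after LPS, a 7.2-fold rise (2.85, standard error 0.17, adjusted p 4.98e-07). Its dimerisation partner Max differed by 0.41 (adjusted p 0.0549). The MXD proteins and MNT compete with MYC for MAX, and their genes fell: Mxd4 from 2.28, 2.20 and 2.19 to −1.66, −2.32 and −1.95, an 18.4-fold fall, Mxd3 by 2.74, Mxd1 by 0.92 and Mnt by 0.53. Mycl, a relative of Myc, also fell, by 1.27.

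Genes that make ribosomes rose nearly without exception. Of 48 tested genes 47 rose (97.9% against 30.7% of all genes), none fell, and the median difference was 2.19. The 1 not called was Imp4 (2.12). Ncl, which encodes the nucleolar protein nucleolin, read 6.19, 5.90 and 6.35 at rest and 8.24, 8.22 and 8.19 after LPS, a 4.19-fold rise. Fbl, the methyltransferase fibrillarin, rose 3.49-fold, Nop56, its partner in box C/D particles, 4-fold, and Polr1b, a core subunit of RNA polymerase I, 7.12-fold. The highest member was Gar1 at 3.48, of the H/ACA particles that make pseudouridine. In each of these genes the groups did not overlap, as in all 48 members. The list median was 2.21 within slide 1 and 2.19 within slide 2.

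MYC and MAX bind the E-box CACGTG, which reads the same on both strands. It stood in 10 of 52 promoter windows of the ribosome biogenesis list (19.2%), 10 of 27 of the MYC network list (37%), 13.5% of the windows of genes at least 2-fold higher, 7.4% of those at least 2-fold lower, 8.18% of genes not called and 9.56% of all genes tested. CCAAT, searched on both strands as well, gave 37%, 35.5%, 37.9% and 37.5% for the last 4 sets. The MYC network list was put together from genes tied to MYC, so its E-box share was not independent of that choice. The stretches show the E-box in capitals in Nop2, a ribosomal RNA methyltransferase that rose by 2.75, in Rrn3, an initiation factor of RNA polymerase I that rose by 2.03, in Eif4e, the cap-binding factor, which rose by 2.17, in Hspd1, the mitochondrial chaperonin HSP60, which rose by 2.90, and in Mxd4, which fell.
Nop2, chr6:125131783-125131868, strand +: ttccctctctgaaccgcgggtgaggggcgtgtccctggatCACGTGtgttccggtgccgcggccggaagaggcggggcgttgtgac
Rrn3, chr16:13780611-13780696, strand +: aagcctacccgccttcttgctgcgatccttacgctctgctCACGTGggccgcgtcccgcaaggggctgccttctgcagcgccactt
Eif4e, chr3:138527164-138527249, strand +: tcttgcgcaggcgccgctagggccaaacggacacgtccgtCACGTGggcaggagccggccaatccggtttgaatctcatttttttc
Hspd1, chr1:55088278-55088363, strand -: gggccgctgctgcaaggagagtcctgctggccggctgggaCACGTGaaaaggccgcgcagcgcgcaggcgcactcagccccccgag
Mxd4, chr5:34187884-34187960, strand -: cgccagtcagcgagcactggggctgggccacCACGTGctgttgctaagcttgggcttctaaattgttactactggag
The motif stands in front of genes that moved either way, and Nop2 and Rrn3, like Nfkb2 above, were chosen for their motif after their values were seen.

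Of 30 translation factors 26 rose (86.7% against 30.7% of all genes) and 3 fell (10% against 27%). Eif4a1, the initiation helicase, went from 4.99, 5.13 and 4.94 to 6.84, 6.94 and 6.72, a 3.52-fold rise, and Eif2s1, the alpha subunit of eIF2, rose 4.16-fold. The 3 that fell were Pdcd4 (−1.17), an inhibitor of that helicase, Eif2ak3 (−1.02), the ER stress kinase PERK, and Eef2 (−0.74), the translocation factor. Of 46 cytosolic ribosomal protein genes 1 rose and 23 fell (50% against 27%), none by 2-fold, with a median of −0.41, and 15 fell in the fit without resting replicates 1 and 3. Rplp0, a stalk protein, read 8.79, 9.12 and 9.01 at rest and 8.68, 8.53 and 8.35 after LPS (−0.45, adjusted p 0.0521), and Rpl14 was the 1 that rose (0.68). The median of this list depended on the scaling: it was −0.17 with scaling by the median, which moved the median of all genes from −0.02 to 0.22, −0.03 with quantile normalization and −0.02 in the deposited values.

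Of 37 genes for polyamines, nucleotides and folate 31 rose (83.8% against 30.7% of all genes) and 3 fell (8.11% against 27%). The median was 1.63. Srm, spermidine synthase, went from 2.96, 2.91 and 3.06 to 6.30, 6.43 and 6.17, a 10-fold rise. Odc1, the first enzyme of polyamine synthesis, rose 4.94-fold, Cad, which starts pyrimidine synthesis, 6.73-fold, Ppat, which starts purine synthesis, 4.39-fold, and Mthfd2, the mitochondrial folate enzyme, 7.02-fold. The 3 that fell belong to salvage and breakdown: the kinases Tk1 (−1.78) and Dck (−1.76) recover nucleosides, and Sat1 (−1.43) acetylates polyamines for removal.

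Amino acid genes held 2 of the 10 largest rises. Slc7a3, a cationic amino acid transporter, read −3.80, −3.92 and −4.07 at rest and 2.91, 3.03 and 2.89 after LPS, a 117-fold rise (6.88, standard error 0.12, adjusted p 1.89e-09). Chac1, a glutathione-degrading enzyme that ATF4 induces, went from −3.76, −5.04 and −3.42 (1 array below background) to 2.37, 1.38 and 1.77, a 60.4-fold rise. Slc7a5, the large neutral amino acid transporter, rose 10.4-fold and its heavy chain Slc3a2 2.13-fold. Asns, asparagine synthetase, rose 6.75-fold and Wars, a tRNA synthetase, 2.19-fold. Of 38 genes in this list 32 rose (84.2% against 30.7% of all genes). The 1 that fell (2.63% against 27%) was Slc43a1 (−0.64).

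Of 32 cholesterol and fatty acid genes 26 rose (81.2% against 30.7% of all genes) and 2 fell (6.25% against 27%). Sqle, squalene epoxidase, read 1.64, 1.62 and 1.43 at rest and 4.27, 4.49 and 4.52 after LPS, a 7.28-fold rise, and Fasn, fatty acid synthase, rose 6.21-fold. The 2 that fell were the desaturase Scd1 (−1.48) and the acetate-activating enzyme Acss2 (−1.44, with overlapping values). In glycolysis 17 of 29 rose (58.6% against 30.7% of all genes) and 7 fell (24.1% against 27%). Hexokinase led: Hk2 went from 0.64, −0.35 and 0.53 to 4.08, 4.23 and 3.96, a 14.1-fold rise. Pkm rose 2.11-fold and Ldha 3.21-fold, whereas the glucose transporter Slc2a1 read 3.00, 3.38 and 3.24 against 3.15, 3.10 and 2.87 (−0.17, adjusted p 0.39). Oxidative phosphorylation rose for 32 of 40 (80% against 30.7%) and fell for none, by less (median 0.79). Examples were Cycs, cytochrome c, 3.84-fold higher, and Atp5b, of the ATP synthase, 1.92-fold higher.

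Heat shock chaperones and proteasome subunits rose for 46 of 47 tested (97.9% against 30.7% of all genes), with a median of 1.50. Hspd1 went from 4.99, 4.38 and 4.84 to 7.66, 7.79 and 7.47, a 7.48-fold rise, Hspa8, the constitutive HSC70, rose 1.9-fold, and the proteasome subunits Psmb5 and Psma1 rose 2.99-fold and 1.83-fold. ER genes rose for 31 of 42 (73.8% against 30.7%) and fell for 5 (11.9% against 27%), with a median of 0.64. Hspa5, the ER chaperone BiP, rose 1.94-fold, from 5.46, 5.72 and 5.56 to 6.47, 6.67 and 6.48, and Hsp90b1 1.83-fold. The 5 that fell were Sec24d (−2.06), Pdia4 (−1.04), Eif2ak3, Syvn1 (−0.62) and Dnajc3 (−0.53).

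**Figure D2:**
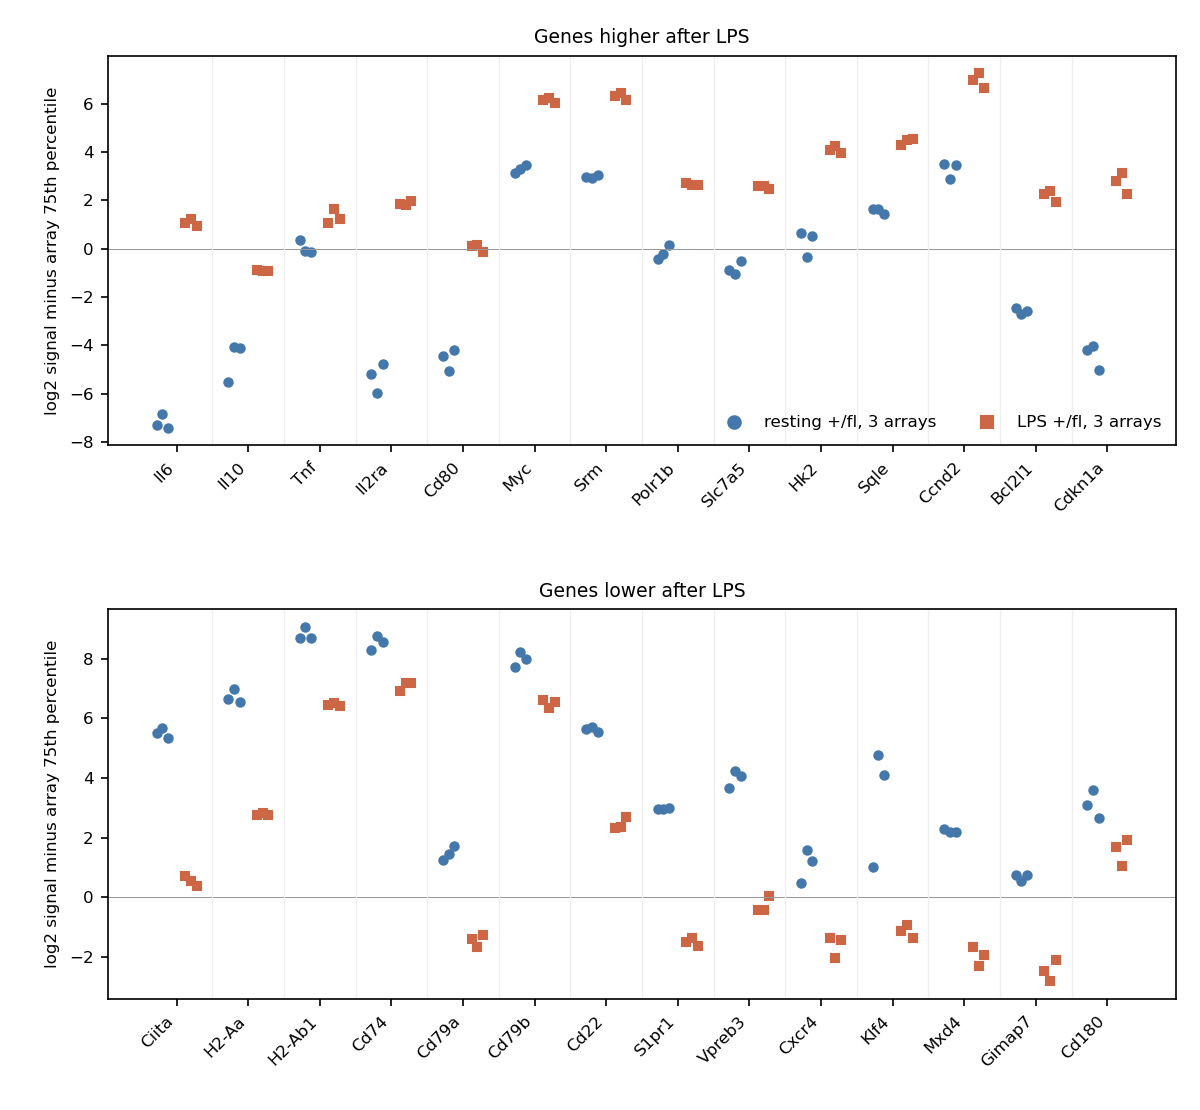
Log2 signal scaled to the 75th percentile (vertical axis) of 14 genes that rose and 14 that fell, with 1 circle per resting and 1 square per LPS-stimulated +/fl array. The groups do not overlap for any of the 28 genes, and the resting values of Klf4 spread most (1.01 to 4.77).

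Of 29 genes of the G1 phase 11 rose (37.9% against 30.7% of all genes) and 7 fell (24.1% against 27%). The list median was 0.12, and 0.37 in the fit without resting replicates 1 and 3, which has 1 resting array. Ccnd2, the D-type cyclin of activated B cells, read 3.50, 2.89 and 3.48 at rest and 6.98, 7.26 and 6.66 after LPS, a 12.8-fold rise, and Cdk4, its kinase, rose 4.19-fold. Ccnd3 fell by 0.60, Ccne1, cyclin E1, by 1.04 and Cdkn1b, the inhibitor p27, by 1.56. Cdkn1a, the inhibitor p21, was the highest of the list and went from −4.18, −4.04 and −5.01 to 2.79, 3.12 and 2.28, a 141-fold rise (7.14, standard error 0.28, adjusted p 6.01e-08). Of 49 replication genes 19 rose (38.8% against 30.7%) and 5 fell (10.2% against 27%), with a median of 0.34. Pcna, the sliding clamp, rose 1.6-fold and Mcm5, of the replicative helicase, 1.47-fold, whereas Mcm2 of the same helicase differed by 0.34 (adjusted p 0.0928). The 5 that fell were Pold1 (−1.40), Rfc2 (−1.16), Rfc1 (−0.84), Dnmt1 (−0.77) and Rpa1 (−0.55).

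E2F factors drive replication genes. Their motifs TTTCCCGC and TTTGGCGC stood on either strand in 13 of 50 windows of the replication list (26%) against 2.69% of windows of all genes tested, and 2.95% and 1.38% of windows of genes at least 2-fold higher and lower. Cdc6 (−0.02) and Gins3 (−0.23), neither of them called, also hold a match before the start. Mcm5 and Mcm6, another helicase subunit, which rose by 0.61, carry the motifs as follows, Mcm6 again chosen for its motif.
Mcm5, chr8:75109320-75109407, strand +: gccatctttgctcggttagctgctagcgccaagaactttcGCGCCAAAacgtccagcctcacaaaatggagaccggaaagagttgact
Mcm6, chr1:128359768-128359855, strand -: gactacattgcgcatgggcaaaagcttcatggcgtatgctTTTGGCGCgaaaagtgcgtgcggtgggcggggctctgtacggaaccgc
TTTGAA, the core of the cell cycle homology region found in mitotic promoters, stood in 33 of 45 windows of the mitosis list (73.3% against 12.7% of all).

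Of 50 mitosis genes 4 rose and 8 fell (8% and 16%, both below the share of all genes). Cdk1, the kinase that starts mitosis, read −0.33, −2.24 and −0.43 at rest and −1.19, −2.37 and −2.03 after LPS (−0.86, adjusted p 0.291). Ccnb1, cyclin B1, read −0.73, −1.90 and −0.04 against −0.38, −1.40 and −1.33 (−0.14, adjusted p 0.874), and Plk1 1.44, −0.16 and 1.85 against 0.88, −0.26 and 0.32 (−0.73, adjusted p 0.272). In each of the 3 genes resting replicate 2 was the lowest resting array and the groups overlapped. The median of the list was −0.46, and 0.52 without resting replicates 1 and 3, with 8 members then higher and 1 lower (25.2% and 21.5% of all genes in that fit). That fit has 1 resting array, with its spread assumed. The 2 arrays left out also read high for myeloid and erythroid markers, whose part in this was not tested. The 4 that rose were Ckap2 (1.79), Mybl2 (1.22), Spc25 (1.09) and Bub3 (0.72).

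Of 31 genes of the DNA damage response and targets of p53, its transcription factor, 15 rose and 6 fell. These were 48.4% and 19.4%, against 30.7% and 27% of all genes. Phlda3, an inhibitor of AKT, read −2.44, −3.13 and −2.52 at rest and 5.72, 5.71 and 4.97 after LPS, a 287-fold rise (8.16, standard error 0.35, adjusted p 8.55e-08), the largest among genes above background in both groups. With Cdkn1a, Mdm2, which encodes the ubiquitin ligase for p53, rose 2.62-fold, from 1.33, 1.67 and 1.73 to 3.06, 3.16 and 2.68. Trp53 itself fell by 0.95 at its brightest probe and was called higher at another (1.43), so its direction is uncertain. The lowest of the list was Sesn1 (−2.37), also a target of p53.

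Some survival and some death genes of the BCL2 family rose. Bcl2l1, which encodes the survival protein BCL-XL, read −2.45, −2.69 and −2.60 at rest and 2.27, 2.38 and 1.92 after LPS, a 27.4-fold rise (4.77, standard error 0.23, adjusted p 1.61e-07), and Bcl2a1b, an A1 gene that near-identical copies make uncertain, rose 8.33-fold. Bcl2l11, which encodes the killer BIM, rose 2.41-fold. Mcl1 differed by −0.33 (adjusted p 0.0698) and Bcl2 by −0.09 (adjusted p 0.551). Of 23 members 9 rose (39.1% against 30.7% of all genes) and 4 fell (17.4% against 27%). The 4 were Fasl (−2.10), Bad (−0.93), Casp8 (−0.67) and Bcl2l12 (−0.42). Without resting replicates 1 and 3, 8 were called higher and 1 lower.

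Genes of antigen presentation by MHC class II fell. Ciita, the co-activator on which class II genes depend, read 5.50, 5.67 and 5.34 at rest and 0.70, 0.53 and 0.39 after LPS, a 31.1-fold fall (−4.96, standard error 0.18, adjusted p 4.72e-08). H2-Aa, the alpha chain of I-A, went from 6.65, 6.99 and 6.55 to 2.77, 2.83 and 2.75, 15.4-fold lower, its beta chain H2-Ab1 from 8.70, 9.07 and 8.68 to 6.46, 6.50 and 6.42, 5.13-fold lower, and the invariant chain Cd74 from 8.30, 8.76 and 8.55 to 6.92, 7.17 and 7.17, 2.73-fold lower. Of 18 genes 12 fell (66.7% against 27%) and none rose, with a median of −2.12. H2-Oa, a regulator of peptide loading, was lowest at −5.56. The 6 members not called belong to class I presentation, among them Tap1 (−0.60).

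Of 30 genes of the B cell receptor and its co-receptors 22 fell (73.3% against 27%) and 1 rose, with a median of −1.38. Cd79a and Cd79b encode the signalling chains of the receptor. Cd79a went from 1.25, 1.46 and 1.72 to −1.39, −1.67 and −1.26, a 7.55-fold fall, and Cd79b fell 2.79-fold. Syk, the proximal kinase, was 2.45-fold lower and Blnk, its adaptor, 1.35-fold lower. Cd22, an inhibitory lectin, fell 9.05-fold, from 5.64, 5.71 and 5.55 to 2.32, 2.36 and 2.70. Dok3, an inhibitory adaptor, was the lowest of the list at −5.22. The 1 that rose was Vav2 (0.35).

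Transcription factors of B cell identity differed among themselves. Pax5, the guardian of the lineage, read 2.93, 2.47 and 3.25 against 3.41, 4.03 and 3.09 (0.63, adjusted p 0.0868). Spib fell by 0.92, Foxo1 by 0.78 and Bach2, which holds back plasma cell fate, by 1.16. Of 25 identity genes 15 fell (60% against 27% of all genes) and 1 rose (4% against 30.7%). The latter was Foxp1 (0.39, but −0.03 with quantile normalization). Irf4 went from 1.01, 1.77 and 1.65 to 3.28, 3.38 and 3.01, a 3.35-fold rise, and Prdm1, which encodes BLIMP-1, from −2.72, −3.34 and −2.53 to −1.63, −2.13 and −1.86, a 1.99-fold rise. Xbp1, the factor of the secretory ER, differed by −0.29 (adjusted p 0.145), Sdc1, the plasma cell antigen CD138, was 4.2-fold lower, and Jchain read 3.63, 1.94 and 4.67 against 3.48, 1.27 and 2.27 (adjusted p 0.347). Of 21 plasma cell genes 4 rose (19% against 30.7% of all genes) and 7 fell (33.3% against 27%).

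Among germinal centre and class switching genes 14 of 24 rose (58.3% against 30.7% of all genes) and 3 fell (12.5% against 27%). Apex1 and Ung, enzymes of base excision repair, rose 6.49-fold (3.07, 3.06 and 2.89 to 5.70, 5.75 and 5.67) and 4.75-fold. The 3 that fell were Gcsam (at least 4.82-fold), Aplnr (−1.59) and Hmces (−1.51).

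Quiescence genes fell for 21 of 30 members (70% against 27% of all genes) and rose for none, with a median of −1.17. Klf4, an antiproliferative factor, read 1.01, 4.77 and 4.11 at rest and −1.13, −0.93 and −1.38 after LPS, a 21.7-fold fall in which resting replicate 1 lay far below the others. Btg1 and Btg2, which slow proliferation by promoting mRNA decay, fell 2.27-fold and 2.23-fold, and Klf2, which keeps lymphocytes at rest, 1.76-fold. Gimap7, a GTPase of resting lymphocytes, fell 8.89-fold, from 0.76, 0.53 and 0.76 to −2.48, −2.82 and −2.10. Gimap1, Gimap4, Gimap6 and Gimap9 fell too, so 5 of 7 tested members fell (71.4% against 27%).

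Receptors of homing, adhesion and migration fell for 19 of 28 (67.9% against 27% of all genes) and rose for 4 (14.3% against 30.7%). S1pr1, the exit receptor for sphingosine-1-phosphate, read 2.97, 2.97 and 3.00 at rest and −1.50, −1.38 and −1.65 after LPS and was 22.5-fold lower (−4.49, standard error 0.15, adjusted p 4.72e-08). Cxcr4, which follows CXCL12, was 6.58-fold lower. Ccr7, which leads activated B cells to the T zone border, rose from 3.29, 4.13 and 3.83 to 6.11, 6.14 and 5.97, 4.99-fold. The others that rose were Itgal (0.67), Cd9 (0.67) and Cxcr5 (0.40), and 2 of the 28 were called higher without resting replicates 1 and 3. Of 19 marginal zone genes 10 fell (52.6% against 27% of all genes) and 4 rose (21.1% against 30.7%). Cr2, which encodes CD21, was 4.6-fold lower, and since 1 of the sorting gates used CD21, the gate's part in it was not tested.

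Immediate-early factors were high in some resting arrays. Fos read −1.43, 3.83 and 3.36 in resting replicates 1, 2 and 3 and −4.56, −4.15 and −4.87 after LPS, an 87.1-fold fall with a standard error of 1.11. Jun read −1.23, 1.95 and 1.31 against 2.36, 2.51 and 2.31 and rose 3.29-fold, and Egr1 read 0.68, 2.92 and 2.12 against −0.25, −0.06 and −0.38 and fell 4.39-fold. Resting replicate 1 was the lowest resting array in all 3 genes. Fosl1, a FOS relative, was above background only after LPS (−1.99, −1.86 and −2.50, at least 8.52-fold higher), and Batf, the AP-1 factor needed for class switching, rose 8.84-fold. Of 19 such factors 5 rose (26.3% against 30.7% of all genes) and 10 fell (52.6% against 27%). The list median was −2.43 within slide 1 and −0.26 within slide 2.

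Interferon-stimulated genes also differed among the resting arrays, with resting replicate 1 high and replicate 2 low. Irf7, the master factor of type I interferon genes, read 4.15, 1.87 and 3.19 at rest and 0.57, 1.50 and 0.93 after LPS and fell by 2.07. Isg15, a ubiquitin-like modifier, read 3.52, 1.05 and 2.46 against 3.54, 4.51 and 3.59 and rose by 1.54. Mx1 read 2.13, 0.36 and 1.33 against −0.30, 0.64 and 0.20 (adjusted p 0.125). Of 25 such genes 4 rose (16% against 30.7% of all genes) and 8 fell (32% against 27%), with a median of −0.21. Within slide 1 the median was 0.32 and within slide 2 −1.32, and without resting replicates 1 and 3, with 1 resting array left and its spread assumed, it was 0.35, with 6 higher and 1 lower.

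**Figure D3:**
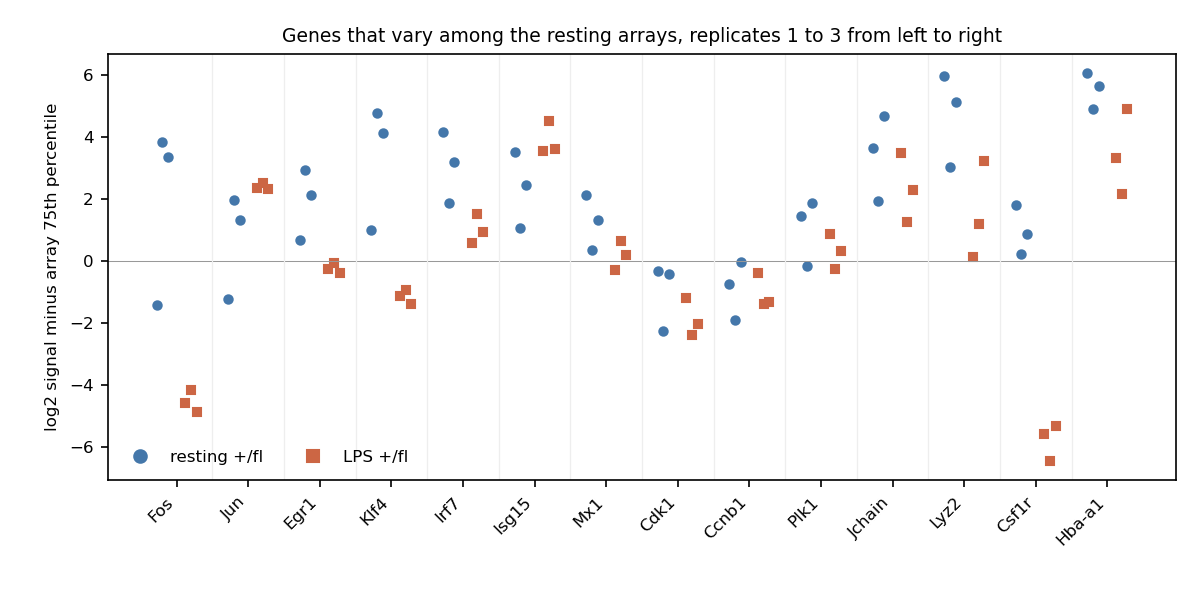
Log2 signal scaled to the 75th percentile (vertical axis) of 14 genes, with resting +/fl replicates 1, 2 and 3 as circles and LPS +/fl replicates as squares, each from left to right. Resting replicate 1 lies low for Fos, Jun, Egr1 and Klf4, and resting replicate 2 lies low for Irf7, Isg15, Mx1, Cdk1, Ccnb1, Plk1, Jchain and Lyz2.

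Feedback genes of cytokine signalling were split. Pim1, a survival kinase that STAT factors induce, read −0.61, 0.82 and 0.90 at rest and 2.23, 1.66 and 2.18 after LPS and rose 3.15-fold. Socs3, which blocks the interleukin-6 receptor, fell by 0.95 and Dusp2, a nuclear MAP kinase phosphatase, by 0.78, both with overlapping values. The lowest was Dusp6, the ERK phosphatase, at −4.86, and the highest Cish at 3.33. In all 10 of 23 rose (43.5% against 30.7% of all genes) and 6 fell (26.1% against 27%). Among DNA methylation and Polycomb enzymes 9 of 20 rose (45% against 30.7% of all genes) and 4 fell (20% against 27%). Ezh2, the Polycomb methyltransferase, rose 2.35-fold, whereas its relative Ezh1 fell by 0.69, Cbx7 by 0.80, Kdm6a by 0.53 and the maintenance methyltransferase Dnmt1 by 0.77.

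The largest falls were mostly genes known from macrophages. C1qc and C1qa, chains of complement C1q, read 2.79, 1.08 and 1.44 and 2.22, 0.43 and 1.01 at rest, were above background on no stimulated array, and were at least 150-fold and at least 102-fold lower. Fcna, a ficolin, was at least 66.1-fold lower and Vcam1, an adhesion molecule of macrophages and stroma, at least 94.4-fold. Slc40a1, the iron exporter ferroportin, fell 119-fold and Csf1r, the receptor for macrophage growth factor, 106-fold (1.80, 0.23 and 0.88 against −5.56, −6.43 and −5.30, with 2 of 3 stimulated arrays below background). Others of the 10 were Fcgrt (at least 92.2-fold), the neonatal Fc receptor, Adamdec1 (at least 21.8-fold), B3gnt8 (125-fold) and Serpinb1c (100-fold), the last 2 even among resting arrays (2.48, 2.46 and 2.34, and 2.27, 2.14 and 1.92).

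Markers of other blood cells fell beside these genes. For comparison, 27% of all genes fell and 30.7% rose. Of 26 myeloid genes 18 fell and none rose, with array medians of 2.23, 0.37 and 1.63 in resting cells (log2 relative to the mean of all 12 arrays) and −1.05, −1.14 and −0.92 after LPS. Their summed linear signal, in units of the array's 75th percentile, ran from 52.7 to 215 at rest and from 43.2 to 132 after LPS, so the 2 ranges overlapped. Unlike Csf1r, the macrophage markers Adgre1 and Cd68 stayed above background on all 3 stimulated arrays. They were 3.02-fold and 2.17-fold lower, and in fl/fl cells Adgre1 differed by 0.15. All 13 NK genes fell, among them Gzma, granzyme A, 20.9-fold and Ncr1, the receptor NKp46, 13.7-fold, with summed signals of 37.3 to 76.2 at rest and 5.43 to 7.96 after LPS. Of 15 erythroid genes 8 fell (53.3%) and 1 rose, and of 12 platelet genes 8 fell (66.7%) and none rose. T cell genes fell for 8 of 19 (42.1%) and rose for 1. Dendritic cell genes fell for 10 of 15 (66.7%) and rose for 3, and stromal genes fell for 4 of 8 (50%) and rose for none. Of the defining markers, Itga2b and Ppbp of platelets and Cdh5 of endothelium were below background on every stimulated array, whereas the T cell gene Cd3e read −3.03, −3.09 and −1.62 against −2.95, −2.87 and −3.26 (adjusted p 0.312). In bulk samples fewer cells of a type and less RNA per cell cannot be told apart. The part of these cells in the falls of genes that B cells share with them, such as class II genes, was not tested. Resting replicates 1 and 3 were the 2 arrays with the highest myeloid and erythroid medians. A fit without them has 1 resting array, with its spread assumed. In it the list of MHC class II and antigen presentation had a median of −2.30 and BCR genes one of −1.52. The median of all genes was −0.03. Medians were −1.44 for myeloid, −2.82 for NK, −1.80 for dendritic cell, −2.13 for platelet, −1.22 for stromal and −0.89 for erythroid genes. The T cell median went from −0.69 to 0.03.

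**Figure D4:**
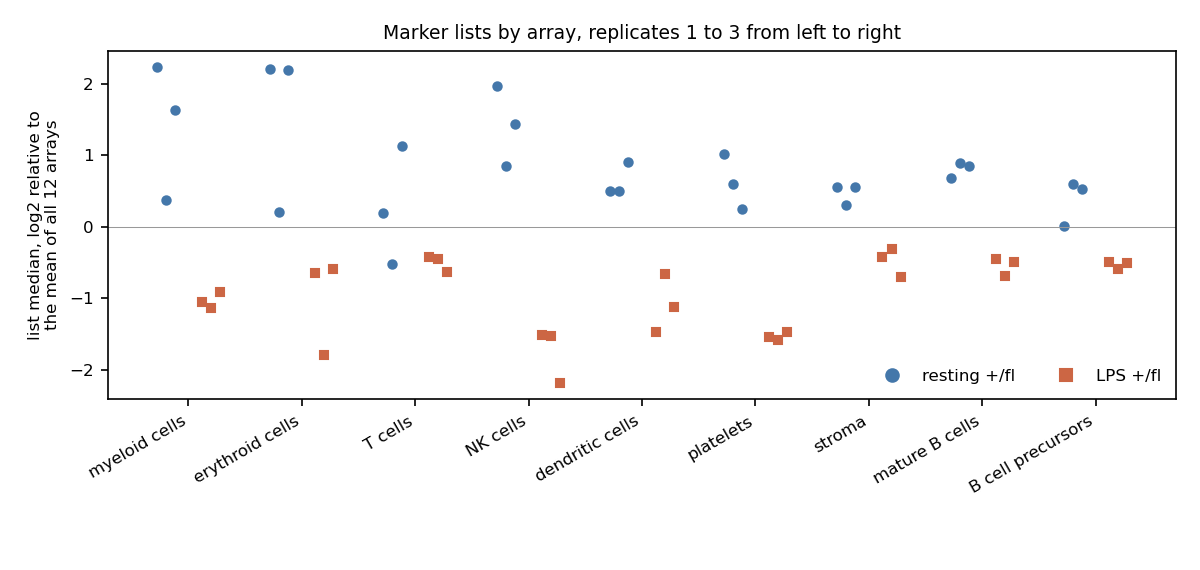
Median of 9 marker lists on each +/fl array (log2 relative to the mean of all 12 arrays, vertical axis), with resting replicates 1, 2 and 3 as circles and LPS replicates as squares, each from left to right. Resting replicates 1 and 3 are highest for myeloid (2.23 and 1.63) and erythroid genes (2.21 and 2.19), and NK genes are lower on every LPS array (−2.19 to −1.51) than on any resting one (0.85 to 1.96).

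Of 9 genes of B cell precursors 4 fell (44.4% against 27% of all genes) and 2 rose (22.2% against 30.7%). Vpreb3, a surrogate light chain relative, went from 3.68, 4.24 and 4.08 to −0.43, −0.43 and 0.03, 19.3-fold lower. Of 15 mature B cell markers 11 fell (73.3% against 27%) and none rose.

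In all, 160 called genes were above background on all 3 stimulated arrays and on no resting one, and 271 the reverse. Besides Il6 the former include 3 of the 10 largest rises: Wnt10b, a secreted WNT ligand, at least 30.3-fold higher, Inka2, at least 39.2-fold, and 1700007K13Rik, at least 41.3-fold.

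The same stimulation of fl/fl cells was read on other arrays, of which LPS fl/fl replicate 2 stood apart, with 83.16% of spots well above background. Without it 10267 genes were called in +/fl cells, and 26 in the test of the difference between the responses. Of the 9873 genes called in +/fl cells, 95.4% differed with the same sign in fl/fl cells, against 61.9% of the genes not called, and 7685 were called there with the same sign. That is 77.8% of the +/fl calls and 80.8% of the 9517 fl/fl calls (55.6% of genes tested, 30.2% higher and 25.3% lower). Il2ra, Myc, Ciita and S1pr1 differed by 7.64, 3.37, −4.83 and −4.59 in fl/fl cells, against 7.20, 2.85, −4.96 and −4.49 in +/fl cells. A test of the difference between the responses called 28 genes (0.163%), with 3474 at an unadjusted p under 0.05, and this count ranged widely over the alternatives tried. S1pr3, the sphingosine-1-phosphate receptor of marginal zone B cells, was among them: it read 1.08, 0.93 and 1.24 at rest and −2.95, −3.59 and −3.30 after LPS in +/fl cells, a difference of −4.36 against −1.75 in fl/fl cells (difference of the 2 responses −2.61). Its resting levels already differed, with means of 1.08 in +/fl and −1.88 in fl/fl cells (2.96, adjusted p 0.00012), against −3.28 and −3.63 after LPS. Cr2, which encodes the CD21 of 1 sorting gate, had resting means of 4.11 in +/fl and 1.65 in fl/fl cells. Which sample took which gate is not recorded, and the gate's part in the S1pr3 difference was not tested.

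**Figure D5:**
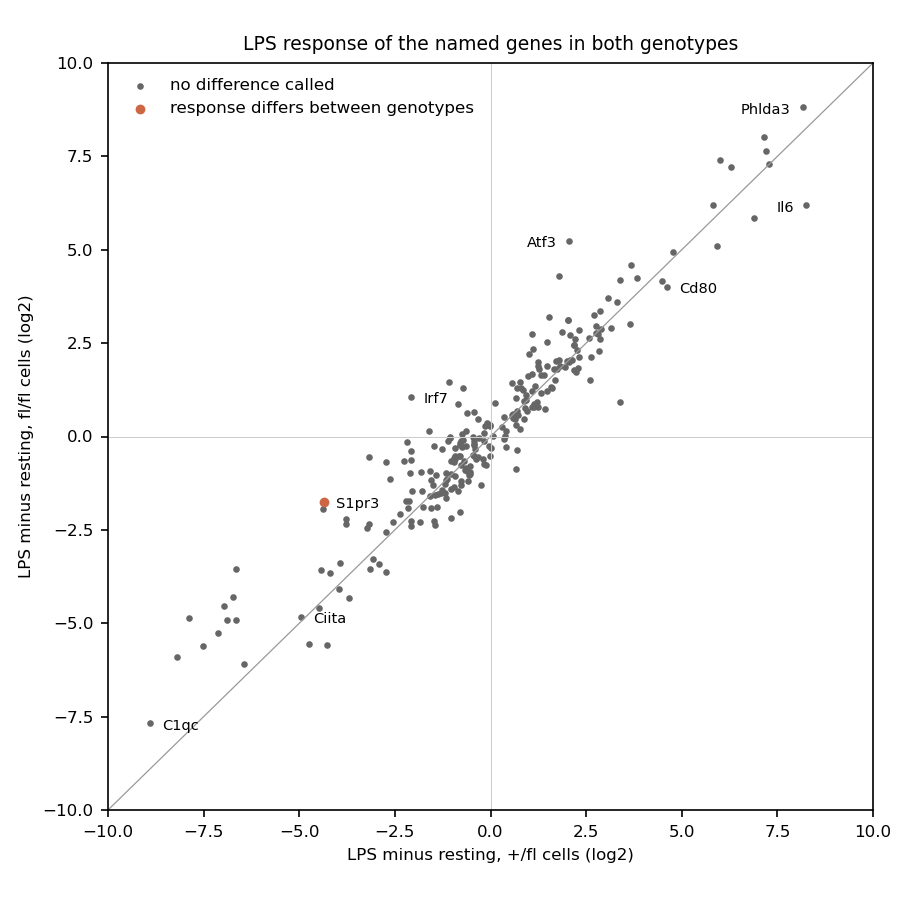
LPS minus resting (log2) of the 254 genes that the naming rule gives, in +/fl cells (horizontal axis) and fl/fl cells (vertical axis), with the line of equal response in grey. Most genes lie along the line, and S1pr3 (−4.36 and −1.75) is the gene whose 2 responses were called different.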

How the data were processed

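Total RNA was labelled with Cy3 and hybridised to 12 one-colour Agilent mouse arrays, 4 groups of 3, on 3 slides of 4 arrays. The deposited scanner files hold spot intensity, background-subtracted by Agilent Feature Extraction per the file headers. The headers give version 9.5.3.1, whereas the submitters' processing notes name version 9.1. The deposited value table, also intensity, matched quantile-normalised scanner signal and served as an alternative. The number of arrays limits the precision.

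The processed signal was put on the log2 scale minus each array's 75th percentile, so a change in RNA content per cell is not seen. Probes well above background on at least 3 of the 12 arrays were kept (25677 probes), spots of a probe were averaged, and the brightest probe stood for a gene. Names came from accessions through RefSeq tables for 23075 probes, from current or older symbols for 6582 and 3077, and from the files for 8440. limma 3.58.1 in R 4.3.3 fitted 4 group means over all 12 arrays, with Benjamini-Hochberg adjustment over 17129 genes and a threshold of 0.05. The fit was tested on simulated data. Where one group was below background on every array, a fold is a lower bound, against the higher of the lowest signal well above background on each array and the probe's own signal. Promoter windows and their letters are from RefSeq on GRCm38.p6, and 10803 genes tested had one.

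Groups came from sample titles. Genes and lists were chosen with earlier results of these data known. Named genes are drawn from 254 that a rule gives: the 10 largest rises and falls, lead genes marked in each of 43 lists, and called members of lists with 5 or fewer calls in a direction. Extremes of a list, Tap1 and genes shown for a motif were added after their values were seen. Replicate numbers did not pair the samples: deviations of same-numbered arrays correlated at −0.043, 0.063 and −0.079. Resting replicate 3 and LPS replicate 1, whose sample names share a number, correlated at 0.133, the highest of 9 pairs. Alternatives covered scaling, background correction, filters, probes, slides, single arrays and the variance model.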

Additional observations from a re-analysis of the deposited data

Results flagged for a closer look

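The LPS response of S1pr3 differed between the genotypes by a test of the difference itself: −4.36 in +/fl and −1.75 in fl/fl cells, a difference of −2.61 (limma interaction, adjusted p 0.00754). All 3 stimulated +/fl arrays lay below all 3 resting ones. The resting levels differed as well, with means of 1.08 in +/fl and −1.88 in fl/fl cells, a difference of 2.96 (adjusted p 0.00012), against −3.28 and −3.63 after LPS. S1pr3 is a marginal zone gene, and which sample took the CD21lo gate is not recorded. The part of the gate in this difference was not tested.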

How the results depend on the processing

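Of 22 settings tried, each kept the count of called genes within 1.5 times 9873, from 6872 with scaling by the median to 11358 with the normexp correction. The higher calls made up 53.2% of all calls, but 61.8% with scaling by the median, where 2628 genes were called lower, and 43% with normexp. Leaving out 1 of the 6 +/fl arrays at a time gave 8944 to 9350 calls, and leaving out LPS fl/fl replicate 2 gave 10267. Replicate numbers as a block gave 8734 calls in the 6 +/fl arrays, but the numbers share no recorded pairing. The interaction count of 28 was unstable: 11 with scaling by the median, 96 with normexp, 3 once resting replicate 3 and LPS replicate 1, whose names hold 1 number, were dropped, 12 without resting replicates 1 and 3, 7 with slide as a fixed block, and 8 to 116 with single +/fl arrays left out, the highest without resting replicate 2 and the lowest without LPS replicate 1. In alternatives chosen after seeing the data it was 8 with no filter, 228 with a filter on all 12 arrays, 60 with a filter on the 6 +/fl arrays, 409 with a trended robust variance and 6 with probes averaged. The cause was not tested.

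Among list medians that changed sign, cytokines were at −0.44 with the filter on all 12 arrays, G1 genes at −0.07 with normexp, and interferon genes at 0.35, mitosis genes at 0.52 and T cell markers at 0.03 without resting replicates 1 and 3. That fit has 1 resting array. In it Ccnb1 was at 0.87, Cdk1 at 0.38, Plk1 at 0.47, Jchain at 0.40, Cd3e at 0.06 and Ly96 at 0.01. With scaling by the median Ccnb1 was at 0.10, Cd69 and Ebf1 at 0.23, Ly96 at 0.04 and Slc2a1 at 0.07. Normexp gave Cd69 0.05, Ebf1 0.02 and Ticam2 −0.03. Ccnb1 was at 0.31 with slide as a fixed block, and Cd69 at 0.06 without resting replicate 3 and LPS replicate 1. Foxp1 was at −0.03 with quantile normalization and −0.02 in the deposited values, and averaged probes put Ikbkg at 0.03 and Trp53 at 0.24. Leaving out single +/fl arrays gave −0.65 to 0.29 for Ccnb1, −0.70 to 0.03 for Cd3e, −0.46 to 0.44 for Cd69 and −0.19 to 0.13 for Ebf1. Of 191 called genes named, 131 kept direction and call in every setting that tested them. Probes near background limit the folds of genes below it in 1 group.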
